A study of Mus musculus with 6 samples.

Results

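The cardiac lineage transcription factors are 10 of the 34745 genes in the expression table, taken by their symbols: the zinc finger proteins *Gata4*, *Gata5* and *Gata6*, the T-box proteins *Tbx5* and *Tbx20*, the basic helix-loop-helix proteins *Hand1* and *Hand2*, the homeodomain proteins *Nkx2-5* and *Isl1*, and the MADS-box protein *Mef2c*. They were measured by RNA-seq in cardiac fibroblasts from the left ventricle of male mice on a C57BL/6 background, either KDM5B-KO or their WT littermates, 8 to 10 weeks old, on Day 7 after myocardial infarction (MI), which was made by tying off the left anterior descending coronary artery. Each label has 3 libraries, both labels received MI, and no sham-operated or uninjured library was analysed here. The knockout was made with CRISPR/Cas9 in the germline by deleting bases around the JmjC domain of *Kdm5b*, a histone demethylase, so it is present in every cell type of the heart and not in fibroblasts alone. The comparison of KO with WT addresses how these factors are expressed in post-infarct fibroblasts of mice labelled as lacking KDM5B.

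In the embryo these factors bind DNA together, on shared enhancers, to switch on the genes of the heart muscle, and they also control one another. *Isl1* marks progenitors of the second heart field, *Nkx2-5* and *Mef2c* act in differentiating muscle cells, and the GATA, T-box and HAND factors are shared by muscle and by the nonmuscle cells of the heart. Adult cardiac fibroblasts, which derive largely from the epicardium and the endocardium, keep part of this set, and *Gata4*, *Mef2c* and *Tbx5* given together are the classical cocktail for turning fibroblasts towards cardiomyocyte-like cells.

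The libraries held 12025403 to 15329427 counts on genes, and 3 counts, the most that a count of 0 allows, were worth 0.196 to 0.249 CPM (counts in a library scaled to 1000000). This floor covers counting error only. KO and WT lay apart on the first principal component (73.8% of the variance), and no library stood apart from its label. *Kdm5b* itself was at 98.1, 107 and 105 TMM-normalized CPM in KO and 108, 129 and 123 in WT, and its log2 fold change of -0.22 (standard error, SE, 0.07) did not pass the threshold (adjusted p = 0.0574 from edgeR), so the groups are named here as the libraries labelled KO and WT. The study reports almost no *Kdm5b* mRNA by Q-PCR and almost no KDM5B protein by immunoblot in KO cardiac fibroblasts. It also reports no KDM5B staining in their nuclei. The counts here do not show such a loss of mRNA. The study does not describe the cells of that Q-PCR as taken after MI. Counts over the whole gene do not read the deleted part alone. *Hoxb7*, a homeobox gene of axial position, had 149, 112 and 155 counts in KO and 0 in every WT library. The identity of the libraries labelled KO is therefore not settled by these values, and each difference given here is one between the labels, whose cause was not tested. Fibroblast markers took 29000 to 33440 CPM in KO and 39280 to 41600 in WT, none of the 16 was at 0, and 12 were lower and none higher, the latter also with DESeq2 and at an unadjusted p below 0.05. Endothelial markers took 1934 to 2710 CPM in KO and 606 to 614 in WT, with 12 of 15 higher, 1 lower and none at 0 in every library. Of the other marker lists, 7 of 12 tested cardiomyocyte, 7 of 11 macrophage, 9 of 10 epicardial and mesothelial and 3 of 7 mural genes were lower, and 0 (also with DESeq2 and at an unadjusted p below 0.05), 2, 1 and 2 of them were higher. Endocardial markers had 1 of 6 tested genes higher, neutrophil markers 2 of 4 higher and 1 lower, and erythroid and megakaryocyte markers 2 of 2 higher, while the 11 lymphocyte markers were too low to test and summed to at most 1.40 CPM in any library. In bulk RNA, fewer cells of a type and less RNA per cell cannot be told apart.

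Of the 10 factors, 8 were expressed well enough to be tested. A call needed an adjusted p below 0.05, with the adjustment made over every gene in the fit, and 4 factors were called, all lower in KO: *Tbx5*, *Hand2*, *Gata6* and *Tbx20*. None was called higher by edgeR or by DESeq2, and 1, *Mef2c*, had an estimate above 0 with an unadjusted p of 0.0415. Of the 14084 genes in the fit 30.2% were called, 12.5% lower and 17.7% higher. *Gata4*, *Gata5*, *Nkx2-5* and *Mef2c* were not called, and *Isl1* and *Hand1* had almost no counts. The median log2 fold change of the 8 factors was -0.32, beside -0.02 over all genes tested and -0.39 over the 16 fibroblast markers. For this reason each change is also given under fibroblast marker scaling, in which the libraries are scaled so that the fibroblast marker genes have a median ratio of 1. The markers include the collagen genes *Col1a1*, *Col1a2* and *Col3a1*. The study reports lower expression of collagen and matrix organization genes in cardiac fibroblasts of KDM5B-KO mice after MI. Marker scaling sets such a change to about 0 whatever its cause, so it does not measure change per fibroblast. On that scale the median over all genes lies 0.40 higher in log2 units, and the median of the factors was 0.08, *Tbx5* remained lower and *Mef2c* was called higher.

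The factors differed in level far more than they changed. In WT the FPKM values, which are CPM per kilobase of gene length, put 4 factors above 10 and the other 6 below 2. *Gata6* led at 25.7 ± 0.910 FPKM (SD, n = 3), followed by *Tbx20* at 23.6 ± 0.733, *Hand2* at 14.6 ± 1.04 and *Gata4* at 11.5 ± 1.62. After a wide gap came *Nkx2-5* at 1.39 ± 0.122, *Tbx5* at 0.960 ± 0.117, *Gata5* at 0.611 ± 0.104 and *Mef2c* at 0.123 ± 0.0185. No neighbours among these 8 overlapped in WT, whereas *Isl1* and *Hand1*, at 0.0471 and 0.0235 FPKM, did.

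In KO the order by FPKM was less distinct. *Tbx20* at 19.95 ± 1.07 FPKM and *Gata6* at 19.2 ± 0.642 overlapped, as did *Hand2* at 10.2 ± 0.641 with *Gata4* at 9.83 ± 0.496, and *Gata5* at 0.514 ± 0.225 with *Tbx5* at 0.488 ± 0.0491. The order depended on the length used. The gene length behind the FPKM of *Mef2c* is 42007 bases, while its longest annotated transcript in GENCODE M21 is 6277 bases, and for *Gata4* the lengths are 6940 and 3400. Divided by the longest transcript instead, a scale added after the values were seen, *Gata4* led in WT with 23.4 and overlapped *Gata6* at 21.7, and *Mef2c* stood at 0.825 CPM per kilobase, above *Gata5* at 0.611. On that scale *Nkx2-5* and *Tbx5* overlapped in WT. In KO *Gata4* led with 20.1, followed by *Gata6* at 16.2 and *Tbx20* at 15.1, without overlap.

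**Figure D1:**
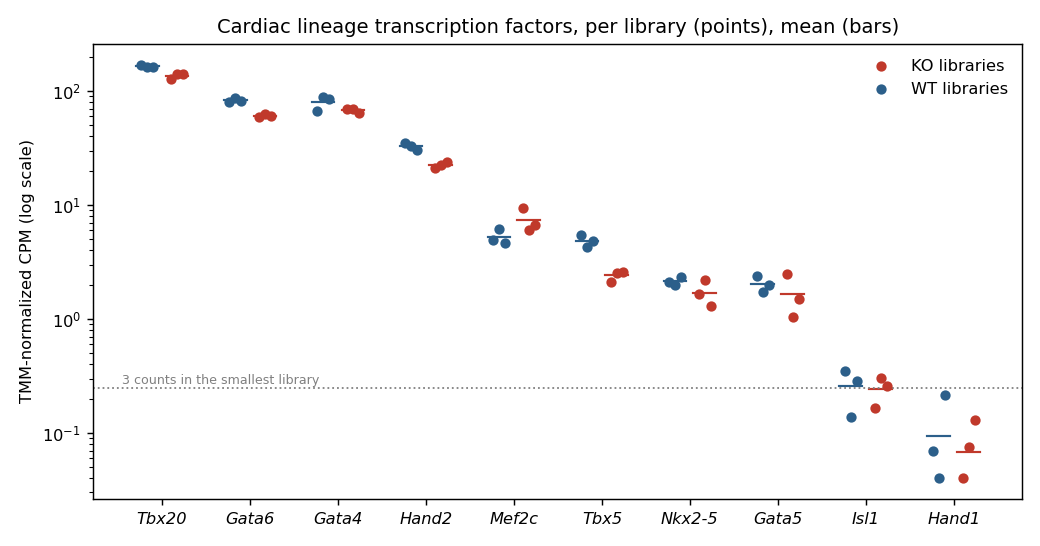
TMM-normalized CPM of the 10 factors on a log axis, not divided by gene length, with 1 point per library (blue WT, red KO, n = 3 each) and a bar at the mean. Points at the lower edge for *Hand1* stand for a count of 0, and the dotted line is what 3 counts are worth in the smallest library. Red and blue points do not overlap for *Tbx20*, *Gata6*, *Hand2* and *Tbx5*, and they overlap for the other 6.

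Among the factors called lower with TMM, *Hand2* and *Tbx20* have RefSeq promoter windows, and their upstream sequences are shown. Each line is the 250 bases before the start in build GRCm38.p6, 5′ to 3′ on the gene's strand, *Hand2* from chr8:57320733-57320982 on the plus strand and *Tbx20* from chr9:24774304-24774553 on the minus strand, with matches to the searched motifs in capitals.
Hand2: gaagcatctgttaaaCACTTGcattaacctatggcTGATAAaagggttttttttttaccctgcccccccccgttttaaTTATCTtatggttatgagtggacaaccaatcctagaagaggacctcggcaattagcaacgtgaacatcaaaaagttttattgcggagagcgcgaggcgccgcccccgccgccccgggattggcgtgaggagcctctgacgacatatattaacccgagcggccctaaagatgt
Tbx20: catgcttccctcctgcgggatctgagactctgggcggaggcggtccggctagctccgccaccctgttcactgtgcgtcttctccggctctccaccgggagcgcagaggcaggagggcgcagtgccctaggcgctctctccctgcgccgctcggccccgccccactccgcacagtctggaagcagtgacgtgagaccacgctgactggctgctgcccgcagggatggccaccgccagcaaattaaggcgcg
The letters searched on both strands were AGATAA or TGATAA, or either with a final G, for a GATA site, CAAGTG for an NKX2 site, GGTGTGA for a T-box core and TATAAA for a TATA box. The *Hand2* window held 2 GATA matches, whose first printed bases lie 215 and 172 bases before the start, and 1 NKX2 match at 235, and the *Tbx20* window held none of these motifs. Over 32851 windows of the same length, 26.5% hold a GATA match, 11.6% an NKX2 match, 3.33% the T-box core and 12.4% a TATA match. These shares are for each motif alone. The share of windows with 2 GATA matches and an NKX2 match, as in the *Hand2* window, was not counted. Both windows were richer in CpG than most, with an observed to expected ratio of 0.993 for *Hand2* and 0.749 for *Tbx20* beside a median of 0.374, although their GC content differed (49.2% and 68.8%). The table also held windows for *Gata5*, *Isl1*, *Nkx2-5* and *Mef2c*, of which the *Isl1* window had 1 GATA match and the most upstream *Mef2c* window 1 NKX2 match and 1 TATA match, and the next *Mef2c* window had 1 TATA match. A match of letters is a description and not a binding site.

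*Tbx5* (ENSMUSG00000018263, chromosome 5, 119832668 to 119885219, plus strand in mm10), the T-box factor of limb and heart whose loss in humans causes Holt-Oram syndrome, had the largest estimated change of the 8 tested factors. It had 26, 34 and 40 counts in KO and 78, 63 and 68 in WT, or 2.13, 2.55 and 2.58 against 5.46, 4.30 and 4.84 TMM-normalized CPM. Every KO library was below every WT library. The labels did not overlap for 47.0% of all tested genes, with KO lower for 22.4% and higher for 24.7%. *Tbx5* fell by 49.98% (log2 fold change -0.9995, SE 0.18, edgeR adjusted p = 0.00447), and the adjusted p stayed between 0.00292 and 0.0208 over the alternatives to the TMM fit. Under fibroblast marker scaling the log2 fold change was -0.60 (SE 0.19, adjusted p = 0.0189), a direction in which that scaling called 47 genes, or 0.334% of those tested. In counts per 100000 counts of the fibroblast markers, *Tbx5* stood at 7.46, 7.67 and 8.17 in KO and 13.8, 10.2 and 11.5 in WT, again without overlap. Without WT replicate 1, the highest library, the scaled value was -0.52 with an adjusted p of 0.0728 and was no longer called.

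*Tbx20* (ENSMUSG00000031965, chromosome 9, 24720812 to 24774303, minus strand), the other T-box member, is needed for chamber growth and is the factor with the most counts here. Its TMM-normalized CPM were 127, 141 and 140 in KO and 170, 163 and 161 in WT. The groups did not overlap, but the change was small: *Tbx20* fell by 17.5% (log2 fold change -0.28, SE 0.06, edgeR adjusted p = 0.00755), and under fibroblast marker scaling the estimate turned to 0.12 (adjusted p = 0.128). The ratio of the counts of *Tbx5* to those of *Tbx20*, which no scaling of the libraries can move, was 0.0168, 0.0181 and 0.0185 in KO and 0.0321, 0.0264 and 0.0300 in WT. The ratio in KO was 0.604 times that in WT and the libraries did not overlap. In an exact permutation test, two-sided, p was 0.1, the smallest value that 3 libraries against 3 allow.

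*Hand2* (ENSMUSG00000038193, chromosome 8, 57320983 to 57324517, plus strand), a helix-loop-helix factor of the right ventricle, neural crest and epicardium, was at 21.1, 22.3 and 23.98 TMM-normalized CPM in KO and 35.2, 33.0 and 30.6 in WT. All KO libraries were below all WT libraries. *Hand2* fell by 31.7% (log2 fold change -0.55, SE 0.09, edgeR adjusted p = 0.00221), and with fibroblast marker scaling the estimate was -0.15 and not called (adjusted p = 0.211). Relative to *Tbx20* in the same library it was also lower, with mean count ratios of 0.165 ± 0.00708 in KO and 0.200 ± 0.00893 in WT and no overlap (exact permutation p = 0.1, n = 3). *Gata6* was lower relative to *Tbx20* as well, at 0.447 ± 0.0159 in KO and 0.505 ± 0.0292 in WT without overlap. The share of all gene pairs that separate the labels in this way was not counted. Next to *Hand2* lies *Hand2os1* (listed as *AV026068*), a long noncoding RNA read from the opposite strand, whose start is 124 bases from that of *Hand2* and inside the window printed above. *Hand2os1* had 57, 40 and 42 counts in KO and 64, 58 and 62 in WT. Its change of -0.32 on the log2 scale (SE 0.23) was not called (adjusted p = 0.325 from edgeR). The antisense gene *Gm28063* covers 3247 bases of *Hand2* and had 2 counts in WT replicate 1 and none elsewhere, and whether the counting used strand is not stated in the sources used here. *Hand1* (ENSMUSG00000037335), the left ventricular and extraembryonic relative, had 0, 1 and 2 counts in KO and 1, 0 and 3 in WT, so no difference was detectable at this depth.

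*Gata6* (ENSMUSG00000005836, chromosome 18, 11052510 to 11085635, plus strand), a factor of the outflow tract and of mesothelial and smooth muscle cells, was at 58.6, 63.2 and 60.1 TMM-normalized CPM in KO and 80.6, 86.6 and 82.0 in WT. The libraries of each label lay close together and the labels did not overlap. *Gata6* fell by 27.0% (log2 fold change -0.45, SE 0.06, edgeR adjusted p = 8.47e-04), whereas with fibroblast marker scaling the estimate was -0.05 (adjusted p = 0.563), so its change had about the size of the change in the fibroblast markers. The antisense gene *1010001N08Rik* overlaps *Gata6* by 58 bases and had 32, 30 and 42 counts in KO and 32, 47 and 40 in WT (adjusted p = 0.682 from edgeR).

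*Gata4* (ENSMUSG00000021944, chromosome 14, 63198922 to 63271692, minus strand), the best known cardiac GATA factor and also a marker of adult cardiac fibroblasts, was at 69.0, 70.0 and 63.5 TMM-normalized CPM in KO and 67.3, 89.1 and 85.1 in WT. WT replicate 1 lay among the KO libraries and the other 2 WT libraries above all of them. The log2 fold change of -0.25 (standard error 0.10) was not called (adjusted p = 0.0998 from edgeR), and it was 0.15 under fibroblast marker scaling. Without WT replicate 1 it was -0.37 and called (adjusted p = 0.0110), which made 5 factors lower. The ratio of *Gata4* to *Gata6* counts in the same library was 1.18, 1.11 and 1.06 in KO and 0.836, 1.03 and 1.04 in WT, so it was higher in every KO library, though KO replicate 3 and WT replicates 2 and 3 were nearly equal.

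*Gata5* (ENSMUSG00000015627), the GATA factor of the endocardium, had 30, 14 and 23 counts in KO and 34, 25 and 28 in WT, and the labels overlapped. Its log2 fold change of -0.30 had a standard error of 0.33, was 0.11 under fibroblast marker scaling and was not called (adjusted p = 0.535 from edgeR). *Nkx2-5* (ENSMUSG00000015579, chromosome 17), the homeobox factor of heart muscle, had 20, 29 and 20 counts in KO and 30, 29 and 33 in WT. Its log2 fold change was -0.34 (SE 0.26, edgeR adjusted p = 0.357) and 0.06 under fibroblast marker scaling. Per 1000 counts of *Myh6*, a myosin gene of heart muscle, *Nkx2-5* stood at 7.66, 9.003 and 5.65 in KO and 6.90, 6.30 and 7.40 in WT, with the WT libraries inside the range of the KO libraries. *Isl1* (ENSMUSG00000042258), the LIM homeodomain factor of second heart field progenitors, had 2, 4 and 4 counts in KO and 5, 2 and 4 in WT and was not tested. At these counts only a large change in *Gata5*, *Nkx2-5* or *Isl1* could have been seen.

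*Mef2c* (ENSMUSG00000005583, chromosome 13, 83504034 to 83667080, plus strand), a MADS-box factor of muscle that is also active in endothelial cells, was the 1 tested factor with an estimate above 0. It had 115, 81 and 104 counts in KO and 71, 90 and 65 in WT, or 9.42, 6.08 and 6.71 against 4.97, 6.14 and 4.62 TMM-normalized CPM. KO replicate 2 and WT replicate 2 overlapped and KO replicate 1 stood above the rest. The log2 fold change of 0.49 (standard error 0.20) was not called (adjusted p = 0.105 from edgeR), and without KO replicate 1 it was 0.29. Under fibroblast marker scaling it was 0.90 and called higher (adjusted p = 0.00857), as 59.2% of all tested genes were on that scale. Per 100000 counts of the fibroblast markers, *Mef2c* stood at 33.0, 18.3 and 21.2 in KO and 12.5, 14.6 and 10.97 in WT without overlap. The ratio of *Mef2c* to *Tbx20* counts was 0.0742, 0.0430 and 0.0480 in KO and 0.0292, 0.0377 and 0.0287 in WT, also without overlap (exact permutation p = 0.1, n = 3). The summed endothelial markers were 2710, 1934 and 2253 CPM in the same KO libraries and 614, 606 and 609 in WT. Their order was that of *Mef2c* in KO but not in WT, where replicate 2 was highest for *Mef2c* and lowest for the markers. The part of endothelial RNA in the *Mef2c* values was not tested.

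**Figure D2:**
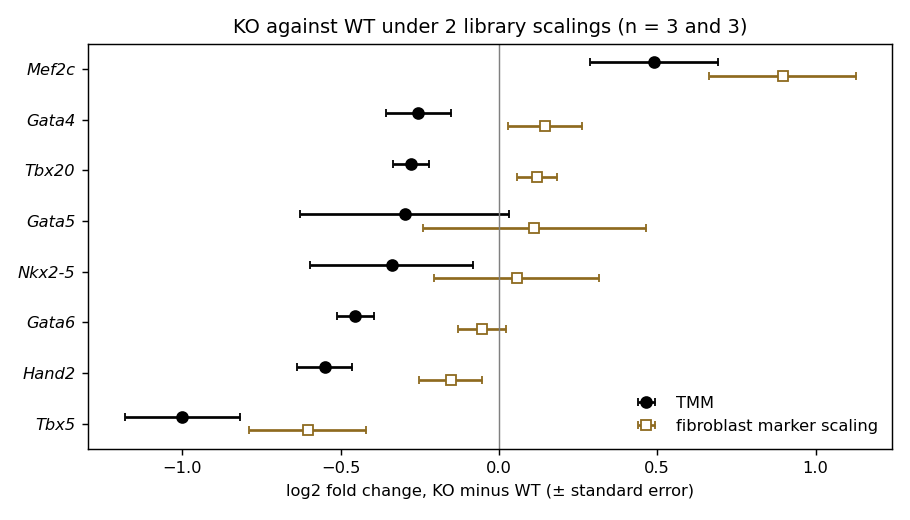
Log2 fold changes of the 8 tested factors, KO minus WT, with standard errors, from edgeR fits with TMM normalization (filled circles) and with fibroblast marker scaling (open squares), n = 3 libraries per label. With TMM all but *Mef2c* lie below 0, and with fibroblast marker scaling every point moves up, *Gata4*, *Gata5*, *Nkx2-5* and *Tbx20* pass 0, and *Tbx5* at -0.60 is the lowest.

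**Figure D3:**
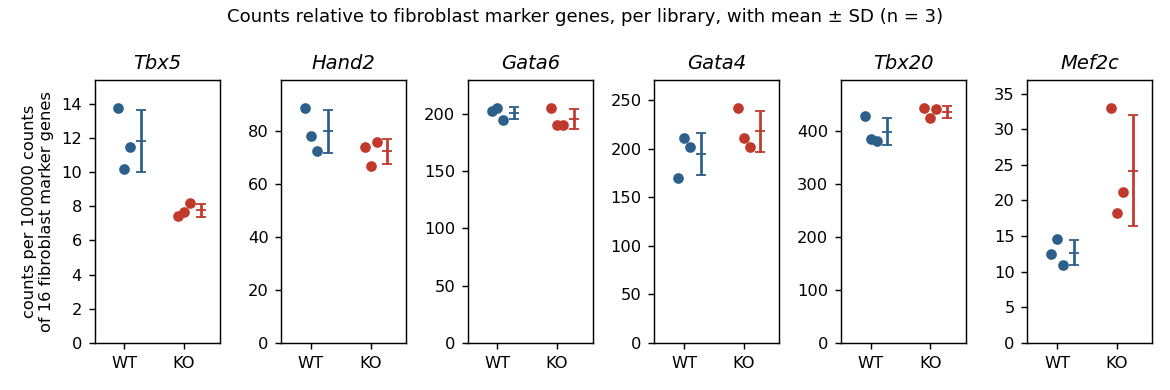
Counts of 6 factors per 100000 counts of the 16 fibroblast marker genes, in each library (points) with the mean and SD at the side (n = 3 libraries per label). Every axis starts at 0. *Tbx5* is lower in all KO libraries and *Mef2c* higher in all of them, while *Hand2*, *Gata6*, *Gata4* and *Tbx20* overlap between the labels. The overlap depends on the denominator. Relative to the geometric mean of the same markers (not shown), *Gata6* was lower and *Tbx20* higher in every KO library. *Tbx5* and *Mef2c* also stayed apart there, and *Hand2* and *Gata4* overlapped.

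Other members of the same protein families were read beside these factors. Of 15 such genes 7 could be tested, of which 2 were higher, 1 lower and 4 not called. *Gata2*, the GATA factor of blood and endothelial cells, was at 33.7, 33.3 and 30.6 TMM-normalized CPM in KO and 2.87, 4.91 and 4.84 in WT. It rose with a log2 fold change of 2.95 (SE 0.18, edgeR adjusted p = 1.8e-05), and in FPKM it went from 0.488 ± 0.134 to 3.86 ± 0.201 (n = 3), still below *Gata4* and *Gata6* in KO. *Mef2a*, a widely expressed MADS-box factor, rose by 0.30 on the log2 scale (adjusted p = 0.0128 from edgeR). *Tbx18*, the T-box factor of the epicardium, fell from 72.8 ± 0.508 to 54.8 ± 1.54 CPM (SD, n = 3), a log2 fold change of -0.41 (adjusted p = 8.9e-04 from edgeR) that was -0.01 under fibroblast marker scaling. Among the T-box genes *Tbx5* thus had an estimate more than 2 times as large on the log2 scale as those of *Tbx18* and *Tbx20*. *Tbx2* and *Tbx3*, low in counts like *Tbx5* and named after their values were seen, were not called. Their log2 fold changes were -0.37 (SE 0.28) and 0.41 (SE 0.26).

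Other factors of heart development were mostly too low to test. Of 13 genes, 1 of them (*Wt1*) also an epicardial marker, 6 could be tested. None was higher, by edgeR, by DESeq2 or at an unadjusted p below 0.05, and 3 were lower: *Tcf21* and *Wt1*, which mark the epicardium and the fibroblasts derived from it, and *Irx3*, an Iroquois homeobox factor of the ventricular conduction system. *Tcf21* and *Wt1* both had a log2 fold change of -0.48 (adjusted p = 0.00503 and 0.00784 from edgeR), near 0 under fibroblast marker scaling at -0.08 for each. *Irx3* had 18, 30 and 29 counts in KO and 53, 55 and 63 in WT, without overlap. Its log2 fold change was -1.08 (SE 0.21, edgeR adjusted p = 0.00643), and under fibroblast marker scaling it was -0.69 and called (adjusted p = 0.0182). That call was lost without KO replicate 1 (adjusted p = 0.0558), KO replicate 3 (0.0512) or WT replicate 3 (0.0669).

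Muscle genes that the factors are known to activate were lower or not called. Of 25 such genes, 10 of them also on the cardiomyocyte marker list, 23 could be tested and 11 were lower. None was higher with edgeR, with DESeq2 or at an unadjusted p below 0.05, and the median log2 fold change was -0.35, or 0.05 under fibroblast marker scaling. *Myh6*, the alpha myosin heavy chain, had a log2 fold change of -0.45, *Tnnt2*, cardiac troponin T, one of -0.44, and *Actc1*, cardiac actin, one of -0.42 (adjusted p = 5.92e-04, 7.15e-04 and 9.79e-04 from edgeR), all within 0.06 of 0 under fibroblast marker scaling. Summed cardiomyocyte markers were 659 to 732 CPM in KO and 898 to 913 in WT, so muscle RNA was present in both labels, and its part in these values was not tested. *Sln*, which encodes sarcolipin, an atrial regulator of the calcium pump, changed more. It had 18, 20 and 26 counts in KO and 42, 54 and 46 in WT, a log2 fold change of -1.08 (SE 0.20, edgeR adjusted p = 0.00516) that was -0.69 under fibroblast marker scaling (adjusted p = 0.0242). The scaled call was lost without KO replicate 1 (adjusted p = 0.0512), KO replicate 2 (0.0674), WT replicate 2 (0.0926) or WT replicate 3 (0.0540).

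**Figure D4:**
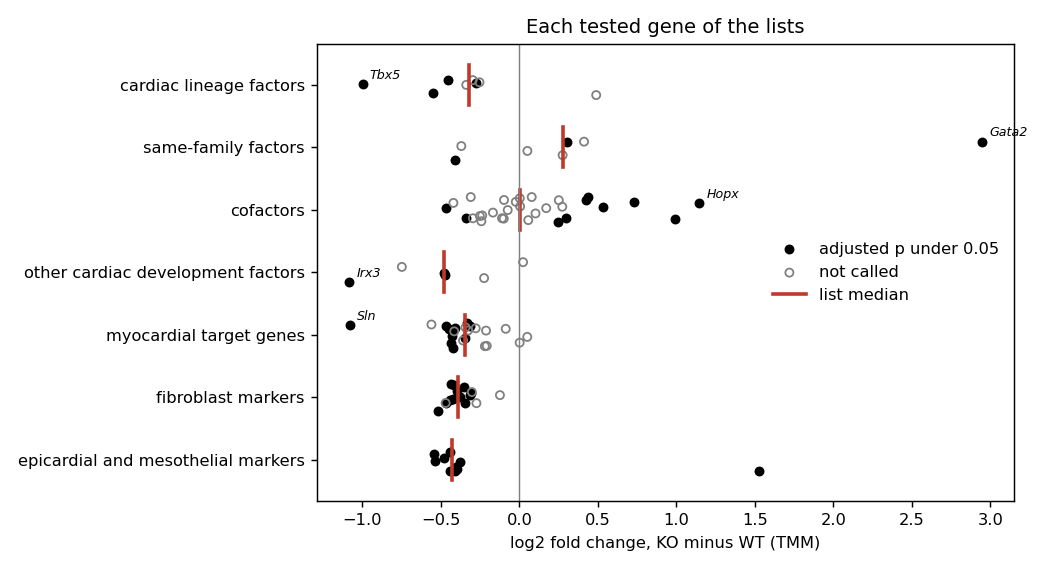
Log2 fold changes, KO minus WT with TMM, of every tested gene of 7 lists (1 point per gene, filled where the adjusted p is under 0.05, n = 3 libraries per label) with the list median as a red bar; fibroblast marker scaling would shift all points up by about 0.40. The cardiac lineage factors, the development factors, the muscle target genes and the fibroblast, epicardial and mesothelial markers have medians between -0.48 and -0.32, *Tbx5*, *Irx3* and *Sln* lie near -1, and *Gata2* is at 2.95.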

How the data were processed

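Left ventricular cardiac fibroblasts of Day 7 after MI were sequenced with a stranded, poly(A)-selected kit. HISAT2 with its default settings was used by the authors for mapping to mm10, and they deposited whole-number counts per gene, without normalization, and FPKM values, which are CPM per kilobase of gene length. Per the labels' processing notes GRCm38.p4 and edgeR were also used, and the counting tool, annotation and strand setting are not given in the sources used here. The labels do not say whether replicates are separate animals, so the p-values measure the spread between these 3 libraries per label.

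The test was that of edgeR 4.0.16, run in R 4.3.3 on the counts (filterByExpr, TMM, glmQLFit and glmQLFTest, Benjamini-Hochberg over all 14084 genes tested, two-sided, called at 0.05, all 6 libraries) without covariates. The fit was first tested on simulated data. Standard errors are the log2 fold change divided by the root of the F statistic. Single ratios were compared with exact permutation tests. The members and the lists (related factors, cofactors, muscle targets, development factors, Hox genes and markers of 10 cell types) were chosen with earlier results of these data known. The text names all members, the genes of the 4 related-gene lists called with a log2 fold change beyond 1, and up to 3 genes per list with the lowest p. Marker and Hox lists are given mainly by counts.

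As alternatives the filter was left out or replaced by a minimum mean CPM of 1, and the others were DESeq2 1.42.0, library size, upper quartile or fibroblast marker scaling in place of TMM, limma 3.58.1 on log2(FPKM + 1) and log2(FPKM + 0.1), a replicate block, leaving out 1 library at a time, and a fold above 2. Other marker lists as the scale, and leaving out libraries under marker scaling, were added after seeing the data. Promoter windows are from RefSeq (GRCm38.p6) and transcript lengths from GENCODE M21 (GRCm38), and 6 members matched the promoter table. Depth per library is given above and limits the precision of the low genes.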

Additional observations from a re-analysis of the deposited data

How the results depend on the processing

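With fibroblast marker scaling 8335 genes were called higher and 47 lower, in place of 2488 and 1760, and 1 factor was called in each direction, *Mef2c* higher (0.90) and *Tbx5* lower (-0.60). The log2 fold changes of *Gata4* (0.15), *Gata5* (0.11), *Tbx20* (0.12) and *Nkx2-5* (0.056) turned above 0, and those of *Gata6* (-0.05) and *Hand2* (-0.15) stayed below 0 but were not called. By its construction this scaling shifts all genes up. With the upper quartile 2210 genes were higher and 2263 lower, and the 4 factors stayed called. Requiring a fold above 2 left 844 genes higher, 38 lower and 0 factors lower. Leaving out each library in turn gave 2013 to 2508 genes higher, 1131 to 1614 lower (the lowest without KO replicate 3) and 4 to 5 factors lower, *Gata4* being added without WT replicate 1 (-0.37). The pseudocount of 1 FPKM reduced the estimates of low genes by its construction, to -0.40 for *Tbx5* and 0.07 for *Mef2c*. Of the values of single factors, 112 kept their direction and side of the threshold, 4 reversed, among them *Tbx20*, which also lost its call, 2 were newly called, and 2 more lost their call without reversing.

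The replicate block gave 2316 genes higher and 1591 lower and the count of factors lower stayed at 4. Same-numbered libraries barely deviated together (r = 0.017, 0.017 and 0.031), although each KO library correlated best with the WT library of its own number. Whether they share more than a number cannot be told from these values.

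With cardiomyocyte, macrophage, or epicardial and mesothelial markers as the scale, added after seeing the data, *Tbx5* was at -0.64, -0.62 and -0.57 and called lower each time, and *Mef2c* was at 0.86, 0.86 and 0.93 and called higher each time. With TMM these lists had median changes of -0.38, -0.40 and -0.43, beside -0.39 for the fibroblast markers. They therefore shift all genes by about the same amount, and the repeated calls are no separate support. With libraries left out under fibroblast marker scaling, *Mef2c* ranged from 0.64 to 1.05 and was called each time, *Tbx5* ranged from -0.66 to -0.52 and lost its call without WT replicate 1, *Sln* ranged from -0.77 to -0.57 and lost it without KO replicates 1 and 2 and WT replicates 2 and 3, and *Irx3* ranged from -0.82 to -0.59 and lost it without KO replicates 1 and 3 and WT replicate 3. Depth limits *Gata5*, *Nkx2-5*, *Isl1* and *Hand1*. Without the filter *Isl1* was at -0.08 and *Hand1* at -0.34, neither called (adjusted p = 0.966 and 0.889 from edgeR).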

Other observations

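With TMM, cofactors that bind the cardiac factors or act on them went both ways. All 30 were tested, 8 were higher and 2 lower, and the median log2 fold change was 0.00, or 0.40 under fibroblast marker scaling. Over all tested genes 17.7% were higher and 12.5% lower with TMM, and the medians were -0.02 and 0.38, near those of the cofactors. The class IIa histone deacetylases, which bind MEF2 proteins and repress their targets, were among the 8: *Hdac7* rose from 93.2 ± 6.80 to 155 ± 16.9 TMM-normalized CPM (SD, n = 3; log2 fold change 0.73, adjusted p = 6.44e-04 from edgeR), *Hdac4* had a log2 fold change of 0.53 (adjusted p = 0.00242) and *Hdac5* one of 0.44 (adjusted p = 0.00215). The fourth member, *Hdac9*, named after its value was seen, was at 2.08 and 2.13 CPM with an adjusted p of 0.962. *Hopx*, a homeodomain protein that does not bind DNA itself and restrains SRF, was at 5.57, 6.001 and 5.61 CPM in KO and 1.75, 2.66 and 3.34 in WT without overlap, a log2 fold change of 1.15 (SE 0.23, edgeR adjusted p = 0.00652). Under fibroblast marker scaling *Hdac7*, *Hdac4*, *Hdac5* and *Hopx* were at 1.14, 0.94, 0.84 and 1.54. The counting table also lists *Hopxos*, which overlaps *Hopx*. The 2 lower cofactors, named after their values were seen, were *Smarcd3*, a chromatin remodelling subunit that works with TBX5 and GATA4, with a log2 fold change of -0.47 (adjusted p = 0.00290 from edgeR, -0.07 under fibroblast marker scaling), and *Meis2*, a homeodomain partner, with -0.34 (adjusted p = 0.00686, 0.06 under fibroblast marker scaling).

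The Hox genes, homeodomain factors of axial position, moved unlike the cardiac factors. Of 39 genes 20 passed the filter and 19 were higher in KO. None was lower by edgeR, by DESeq2 or at an unadjusted p below 0.05. Genes with almost no counts in WT, *Hoxb7* and *Hoxb8* among them, passed the filter only through the KO libraries. Such genes could not come out lower, so the count of 19 does not by itself measure a direction. Together the 39 genes took 77.6 to 88.7 CPM in KO and 20.2 to 21.4 in WT. *Hoxb7* had 149, 112 and 155 counts in KO and 0 in every WT library, *Hoxa7* 91, 128 and 183 against 1, 0 and 0, and *Hoxb6* 67, 76 and 96 against 0, 0 and 1. The endothelial markers, at 1934 to 2710 CPM in KO and 606 to 614 in WT, rose in the same libraries, and their part in the Hox values was not tested.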
